A study of Homo sapiens with 2 samples.

Results

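Expression of 10 target genes of the transcription factor p53 was examined in A549 cells, a human lung adenocarcinoma line known to carry wild-type p53, after 12 days in monolayer culture and after 12 days in spheroid culture. The genes were CDKN1A, MDM2, GDF15, TP53INP1, SESN1, BBC3, BTG2, ZMAT3, DDB2 and TP53I3, chosen by name from the platform annotation, with every probe set that lists them and among 19775 genes in all. Of these 10 genes, 8 had at least 1 probe set annotated with that gene alone, BBC3 had only 1 probe set that also lists 2 microRNA genes, and BTG2 was not analysed here. Monolayer cells, the group titled DMEM with 10% FBS, grew attached, and spheroid cells, the group titled Serum free medium, grew in suspension in DMEM/F12 with N2 supplement, EGF at 20 ng/ml and bFGF at 10 ng/ml. Attachment, serum, base medium and growth factors therefore differ together and cannot be told apart. RNA of each culture was read on 1 Affymetrix Human U133 plus 2.0 array, so that no difference between the cultures has a replicate check, no test was run, and every value below describes 2 arrays. The sample labels conflict in 1 place, since their free description mentions a hepatoma line and a compound while the cell line field gives A549. The wild-type status of p53 taken here rests on the cells being A549 and was not tested.

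p53 is a DNA-binding protein that accumulates after DNA damage and other stresses and switches on genes that stop the cell cycle, repair DNA, alter metabolism or start cell death. MDM2, itself a target, marks p53 for degradation and closes a negative feedback loop. Many cell cycle genes are lowered at the other end of the pathway, where p21, the product of CDKN1A, inhibits cyclin-dependent kinases and lets the DREAM complex hold those genes off. In A549 cells this pathway is known to be inducible, although the array reads RNA levels and gives neither the sequence nor the protein level of p53.

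None of the 8 measured targets differed by 3-fold between the cultures, and they did not all differ in the same direction. TP53INP1 and ZMAT3 had the highest ratios in spheroid culture, and CDKN1A, SESN1 and TP53I3 were higher by less. MDM2 was nearly level, and DDB2 and GDF15 were slightly lower. These arrays do not resolve that order throughout. The steps from ZMAT3 to CDKN1A, from TP53I3 to MDM2 and from MDM2 to DDB2 are each smaller than the scatter between probe sets given below. Ratios are given as log2 of the spheroid signal over the monolayer signal, after signals below the median of each array (108 in monolayer, 119 in spheroid culture) were raised to that median, called the floor here. A 3-fold higher signal was reached by 0 of 8 targets, against 2.34% of the 13229 genes that exceeded a floor, and a 3-fold lower signal by 0 of 8, against 2.11%. At least 2-fold higher was 1 of 8 (background 6.86%), and at least 2-fold lower were 0 of 8 (background 5.5%). Higher by any amount were 6 of 8, against 52.8% of all genes, and lower by any amount were 2 of 8, against 47.2%. The median log2 ratio of the 8 targets was 0.45, against 0.04 over all genes, with a range from -0.40 to 1.46. Scatter was judged in 2 ways. Over the 11528 genes above both floors the robust SD of the log2 ratio was 0.53, and for 5453 genes with several readable probe sets the ratios of the brightest pair differed with an SD of 0.50. Fewer cells expressing a gene and less of its RNA per cell cannot be told apart in such bulk RNA.

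**Figure D1:**
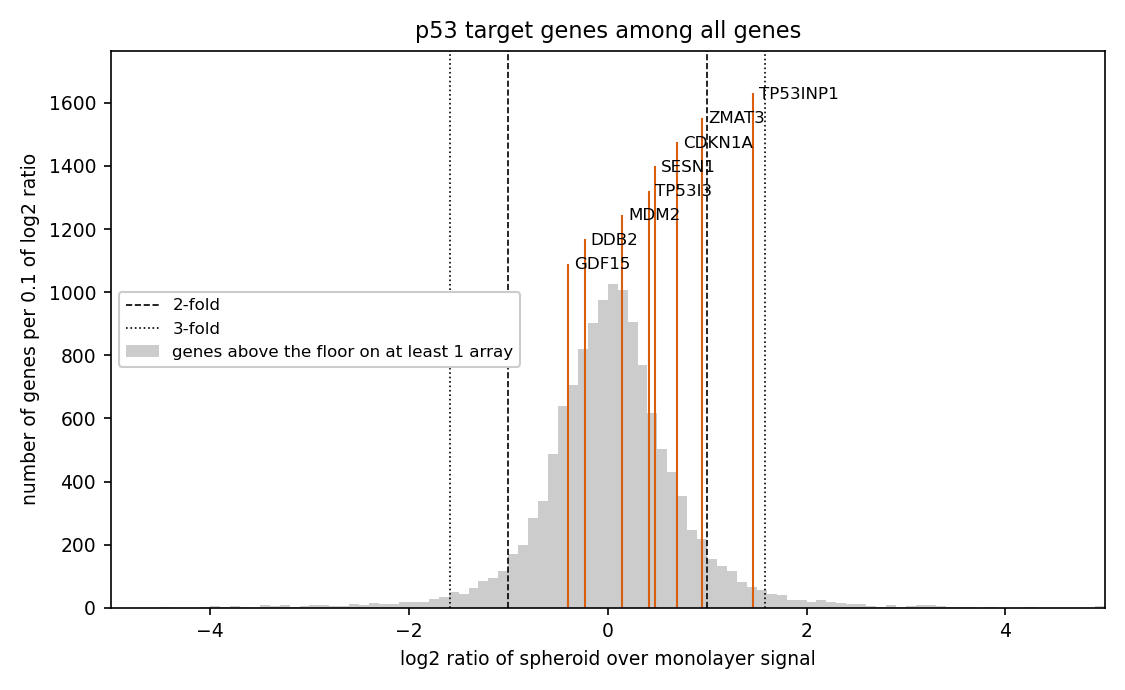
Number of genes per 0.1 of log2 ratio of spheroid over monolayer signal (grey bars, all genes that exceeded a floor), with the 8 measured p53 targets as orange lines at their own ratios. The height of an orange line has no meaning, dashed lines mark 2-fold and dotted lines 3-fold, ratios beyond the axis are counted in its outermost bars, and TP53INP1 at 1.46 alone among the targets lies past 2-fold.

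The 2 targets with the highest ratios, TP53INP1 and ZMAT3, differ in how many probe sets carry the result. TP53INP1 encodes a stress-induced nuclear protein that promotes p53-driven cell death and takes part in autophagy. Its signal on probe set 225912_at was 574 in monolayer and 1579 in spheroid culture, a log2 ratio of 1.46 or 2.75-fold higher, and 2.91% of all genes had a ratio at least as high. Its other 2 probe sets gave no ratio, since both read under the floor in both cultures, with signals of 16.2 and 14.8 on 1 and 14.9 and 2.78 on the other. ZMAT3, a zinc finger protein that binds RNA and acts on splicing and transcript stability, was the best covered target. Its brightest probe set, 219628_at, read 991 in monolayer and 1909.8 in spheroid culture, a log2 ratio of 0.95, which 7.72% of genes reached. All 5 ZMAT3 probe sets were above the floor on both arrays and all 5 were higher in spheroid culture. The signals were 589 and 1654 on 228315_at, 490.4 and 1485 on 225725_at, 489 and 784 on 227221_at, and 160.1 and 311 on 1555609_a_at. The log2 ratios of these 5 probe sets ran from 0.68 to 1.60 with an SD of 0.39, and 225725_at, at 3.03-fold, was the only probe set of any of the targets past 3-fold. As the geometric mean over its probe sets ZMAT3 passed 2-fold, with a log2 ratio of 1.13.

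**Figure D2:**
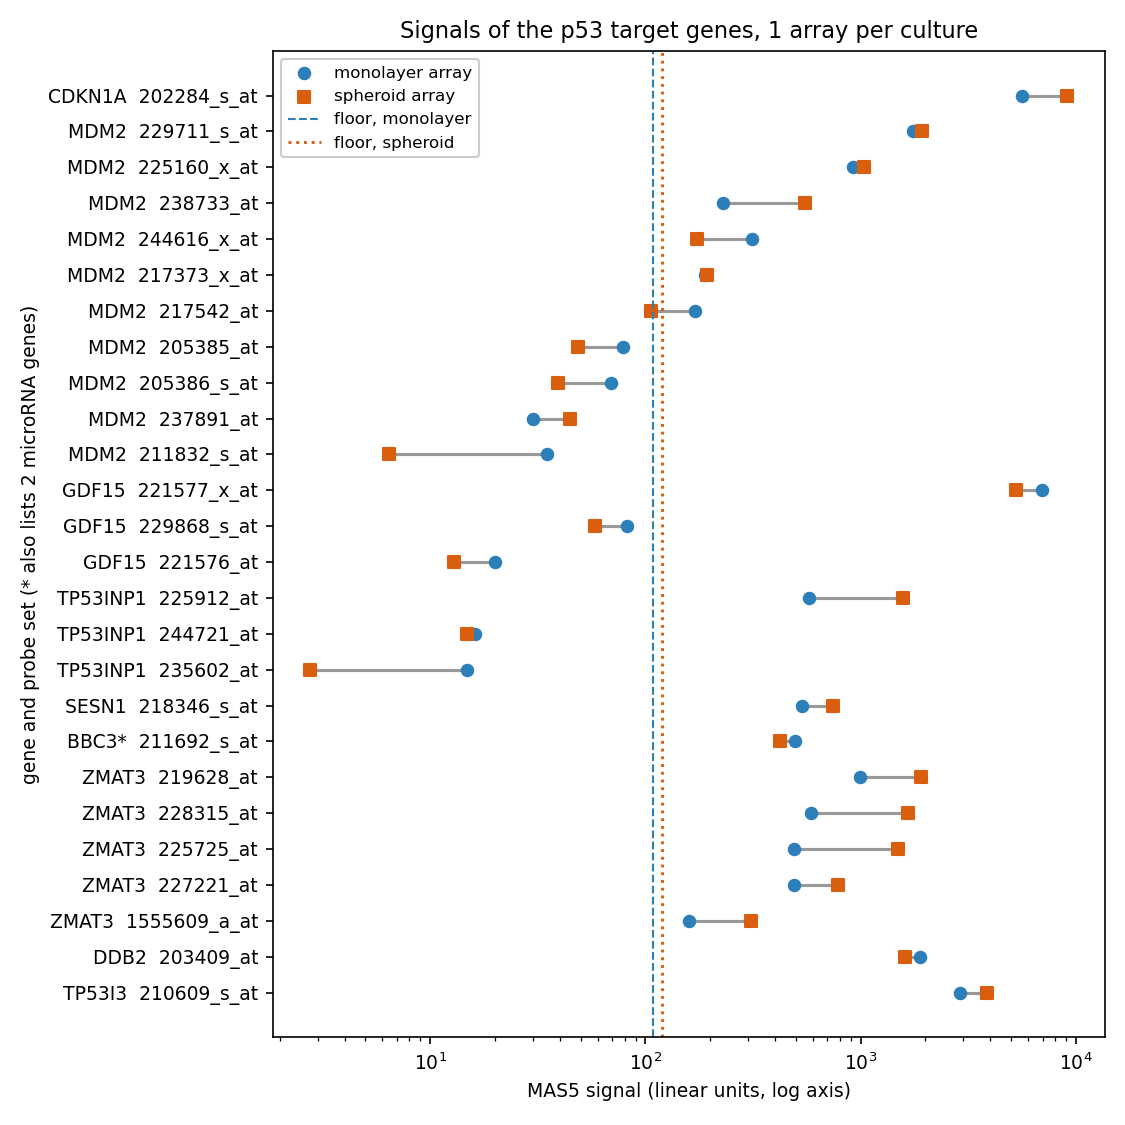
MAS5 signal on a log axis for each of the 26 probe sets that list a target, with the monolayer array as blue circles, the spheroid array as orange squares, and a grey line joining the 2 values of a probe set. The vertical lines are the floors of the arrays, 108 and 119, and 8 probe sets of MDM2, GDF15 and TP53INP1 lie under both of them while all 5 of ZMAT3 lie above, with the spheroid value to the right.

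Of the targets that arrest the cell cycle, CDKN1A was the only 1 measured. It encodes p21, the inhibitor of cyclin-dependent kinases through which p53 halts cells before DNA synthesis. On its only probe set, 202284_s_at, the signal was 5589 in the monolayer and 9084 in the spheroids, 1.63-fold higher. This log2 ratio of 0.70 was reached by 13.02% of all genes and lies short of 2-fold. Its signal was far above the floor in both cultures, so that the ratio does not rest on a dim reading.

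SESN1 and TP53I3, which act on metabolism and oxidative stress, were both higher by less than 2-fold. SESN1 encodes sestrin 1, which restrains mTORC1 signalling and limits oxidative damage, and read 535 in the monolayer and 743 in the spheroids on its single probe set. That is 1.39-fold higher, a log2 ratio of 0.47 which 21.1% of genes reached. TP53I3, also known as PIG3, encodes an NADPH-dependent quinone oxidoreductase tied to reactive oxygen and cell death. On its single probe set it read 2907 and 3883, so that spheroid cells were 1.34-fold higher, with a log2 ratio of 0.42 that 23.7% of genes reached. The ratios of SESN1, TP53I3 and CDKN1A differ among themselves by less than the SD of 0.50 between 2 probe sets of the same gene, so these arrays give them no order. The probe set listing BBC3, which encodes the BH3-only death protein PUMA, together with MIR3190 and MIR3191 read 495 in monolayer and 423 in spheroid culture, and it was left out of all counts because its signal has no single gene.

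MDM2 had 10 probe sets, more than any other target, and they did not go the same way. MDM2 is the E3 ubiquitin ligase that keeps p53 low, and its second promoter is a classical p53-responsive one. Its brightest probe set, 229711_s_at, read 1743 in monolayer and 1929 in spheroid culture, a log2 ratio of 0.15 or 1.11-fold higher, and 41.4% of genes had a ratio at least as high. The next brightest, 225160_x_at, read 926 and 1037, and both bright probe sets thus showed nearly level signals. Probe set 238733_at was 2.40-fold higher in spheroid culture, with signals of 229 and 549.9. Probe set 244616_x_at was 1.81-fold lower, with 314 and 173, and 217542_at was at least 1.43-fold lower, with 171 in monolayer and 106, under the floor, in spheroid culture. The sixth above the floor, 217373_x_at, was level at 189 and 192. The other 4 probe sets stayed under the floor on both arrays, with monolayer signals from 29.97 to 79.1 and spheroid signals from 6.42 to 48.4. The 6 probe sets above the floor had log2 ratios from -0.86 to 1.27 with an SD of 0.73, wider than the spread of ZMAT3, and MDM2 has a log2 ratio of 1.27 when probe sets with names ending in _s_at or _x_at, which can bind related transcripts, are left out.

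DDB2 and GDF15 were the 2 targets with lower signals in spheroid culture. DDB2 encodes the damage-recognition subunit that starts nucleotide excision repair of ultraviolet lesions. Its single probe set read 1887 in monolayer and 1609 in spheroid culture, 1.17-fold lower, a log2 ratio of -0.23 with 31.2% of genes at or below it. GDF15 encodes a secreted stress cytokine of the TGF-beta family. On 221577_x_at it read 6979.6 in monolayer and 5283 in spheroid culture, 1.32-fold lower, with a log2 ratio of -0.40 and 21.4% of genes at or below it. Its other 2 probe sets were under the floor in both cultures, with signals of 82.0 and 58.6 on 229868_s_at and 20.0 and 12.8 on 221576_at. Both differences are smaller than the robust SD over all genes, as are the upward ones of SESN1, TP53I3 and the brightest MDM2 probe set.

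Among the 9 targets with a promoter window, DDB2 alone held an exact match to a complete p53 site. It is shown because DDB2 was not higher in spheroid culture. In RefSeq windows of 250 bases before to 50 after each annotated start (GRCh38.p14), the p53 half-site, a pattern of 10 bases that is its own reverse complement, was searched by exact match, and a full site was counted as 2 such half-sites at most 13 bases apart. Of 35116 windows, 6.63% held a half-site and 0.0285% a full site. Windows were found for 9 of the 10 targets, all but TP53INP1. An exact half-site lay in a window of DDB2 and SESN1, 2 of the 9 genes, against 8.06% of all 27305 genes with a window. The other 7 had no exact match in these windows, which says nothing about inexact sites there or about sites elsewhere. Of 50 other targets with a window, 9 held a half-site and 0 a full site. Genes differ in their number of windows, from 1 for CDKN1A to 4 for MDM2. The lines below print chr11:47214976-47215003 on the plus strand for DDB2 and chr6:109009018-109009047 on the minus strand for SESN1. The full site of DDB2 lies at 47214979-47214999, with its 2 half-sites at positions 6 to 26 from an annotated start. The half-site of SESN1 lies at 109009028-109009037, at positions -49 to -40 from an annotated start. Capitals mark the half-sites.
DDB2: tttGAACAAGCCCtGGGCATGTTTggcg
SESN1: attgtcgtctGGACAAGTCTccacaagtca
The gene with the full site had a ratio of -0.23 and the gene with the half-site 0.47, while the highest ratio among the targets with a window, 0.95 for ZMAT3, belonged to a gene without an exact match. A match is a run of letters and was not measured as binding.

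Genes that sit upstream of p53 or modify it mostly differed by less than 2-fold. Of 18 such genes listed, 16 had a probe set, and 1 of these never exceeded a floor. The other 15 passed 3-fold in neither direction (background 2.34% higher and 2.11% lower), and their median log2 ratio was 0.10. At least 2-fold higher was 1 of 15 (background 6.86%), and at least 2-fold lower were 0 (background 5.5%). By any amount 9 were higher (background 52.8%) and 6 lower (background 47.2%). These counts are close to the shares over all genes. MDM4, the partner of MDM2 that blocks p53 activity, was 1.24-fold lower, with signals of 2122 and 1709 and with 4 of 5 probe sets above the floor lower. PPM1D, the phosphatase that is induced by p53 and shuts the damage response off, was level at 1029 and 1115. CDKN2A, which encodes p16 and the MDM2 inhibitor ARF and which A549 is known to have lost, was the only 1 past 2-fold, at least 2.32-fold higher, with signals of 85.9, under the floor, and 251. Its other 2 probe sets were under the floor on both arrays. MTAP, a neighbouring gene that A549 is also known to have lost, read 471 and 511, with 2 of its 6 probe sets above the floor. Probe sets of genes held to be absent from this line thus read above the floor, by a path that was not tested.

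Other well-known p53 targets also went both ways. Of 65 further targets listed by role, 61 had a probe set and 58 exceeded a floor. Among these 58, 1 was 3-fold higher or more (background 2.34%) and 2 were 3-fold lower or more (background 2.11%). The limit of 2-fold was passed by 7 upward, or 12.1% (background 6.86%), and by 3 downward (background 5.5%). The 3-fold counts and the downward 2-fold count are thus close to the shares over all genes. The median log2 ratio of the 58 was 0.24. Higher by any amount were 39, or 67.2% (background 52.8%), and lower were 19 (background 47.2%). SPATA18, which encodes a protein of mitochondrial quality control also called Mieap, was the 1 past 3-fold, with signals of 193 and 939, 4.86-fold higher, and both of its probe sets were higher. With a floor at the 75th percentile of each array, its log2 ratio was 0.98 instead of 2.28. TSKU, a secreted proteoglycan-like protein, was 3.09-fold lower with signals of 4507 and 1456 on its single probe set. E2F7, a repressor of the E2F family that p53 induces and that cycling cells also use, was at least 5.76-fold lower, with 687 in monolayer and 96.8, under the floor, in spheroid culture. Its log2 ratio was -2.53 on this probe set, -1.32 when its probe sets were averaged geometrically and -0.48 with the higher floor.

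By role, the arrest genes went both ways and the surface and secreted genes held 4 of the 7 that passed 2-fold upward. SFN, the 14-3-3 sigma protein that holds cells before mitosis, read 4698 and 10947, a ratio of 2.33-fold in favour of spheroid culture which had the same sign on 3 of 3 probe sets. GADD45A, a stress protein of growth arrest and repair, read 3045 and 1377, 2.21-fold lower, so that of the 8 arrest genes above the floor 2, with E2F7, passed 2-fold downward and 1 passed it upward. Of 17 death genes above the floor, SPATA18 was the only 1 past 2-fold in either direction, and their median log2 ratio was 0.14. Of 6 repair genes, 0 were past 2-fold in either direction, with a median of 0.04 and a range from -0.33 to 0.47, and DDB2, a target of the same role, lay inside that range at -0.23. Of 14 genes of metabolism and autophagy, 1 was at least 2-fold higher, the ceramidase gene ACER2, with signals of 142 and 306, and the median was 0.44. Of 13 secreted and surface genes, 4 were at least 2-fold higher (background 6.86%). These were TGFA, a ligand of the EGF receptor, with signals of 776 and 2324, the potassium channel gene KCNN4, with 767 and 1931, the matrix protein gene THBS1, with 353 and 817, and SULF2, a sulfatase of heparan sulfate, with 982 and 2236. Of these calls, SULF2 was under 2-fold when its probe sets were averaged (log2 ratio 0.85), THBS1 with the floor set to the 75th percentile (0.78) and ACER2 with quantile normalization (0.99) or division by the array median (0.96). TGFA lay just inside 3-fold at 2.996-fold, and TSKU was the 1 of the 13 that was at least 2-fold lower.

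**Figure D3:**
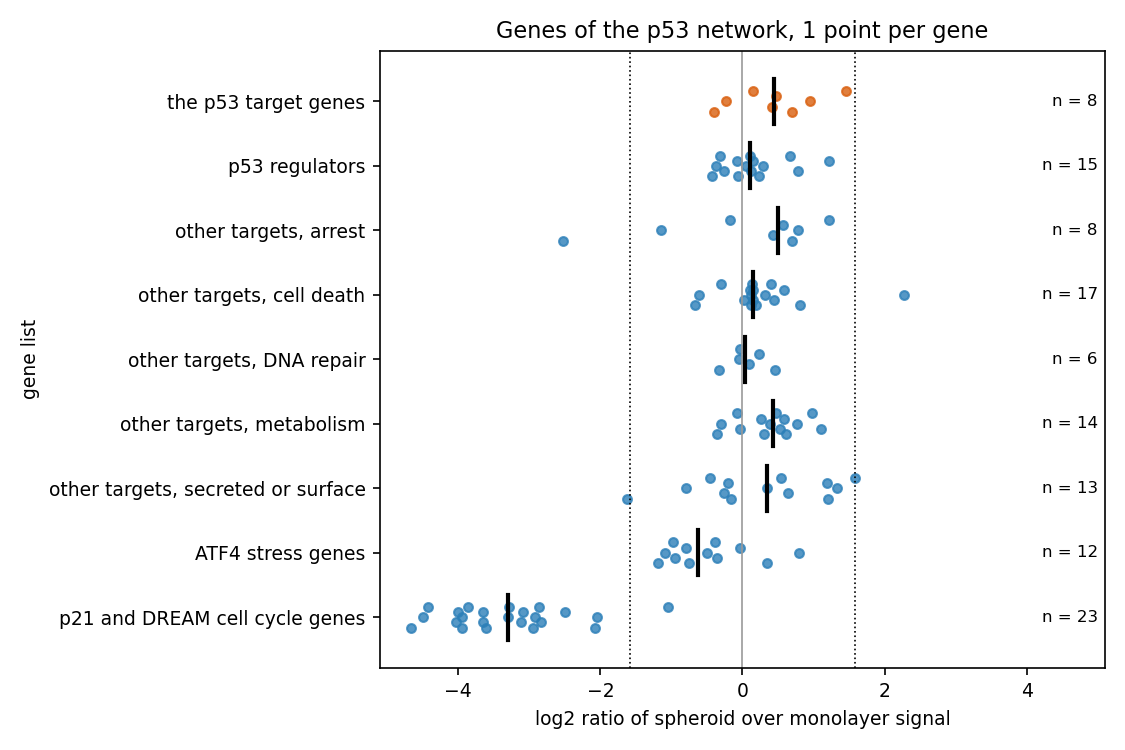
Spheroid over monolayer signal as a log2 ratio for the 8 measured p53 targets (orange) and for the related gene lists (blue), each point being 1 gene that exceeded a floor and each black bar the median of its list. Dotted lines mark 3-fold, vertical offsets within a list only separate points, and the cell cycle genes at the bottom have the lowest median of the lists shown, -3.30. A gene below the floor on 1 array is drawn at its bound.

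The genes at the far end of the pathway, which p21 and the DREAM complex hold down, were far lower in spheroid culture while CDKN1A was 1.63-fold higher. Of 24 such cell cycle genes, 22 were at least 3-fold lower (background 2.11%), E2F1 was 2.08-fold lower and CDC25A exceeded neither floor. For the 23 others the median log2 ratio was -3.30, and 0 of them were higher on the probe set used. Of the probe sets above the floor, 1 of 3 for AURKA and 1 of 2 for KIF23 were higher. With the geometric mean of the probe sets, 20 genes were at least 3-fold lower. CDC20, an activator of the anaphase-promoting complex, was at least 25.3-fold lower, with 3017 in monolayer and 109, under the floor, in spheroid culture. PTTG1, which encodes securin, read 10740 and 477, 22.5-fold lower, and TOP2A, the topoisomerase of dividing cells, read 11691 and 541, 21.6-fold lower, or a log2 ratio of -4.43 that was -3.11 as the geometric mean over its probe sets. FOXM1, the transcription factor of the mitotic programme, was at least 16.4-fold lower. With the floor set to the 75th percentile, the log2 ratios of CDC20 and FOXM1 were -2.62 and -1.99 instead of -4.66 and -4.03. These genes also follow the share of dividing cells in any culture, and whether p21 has a part in their level was not tested.

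Stress genes under the transcription factor ATF4, which is known to induce GDF15 and SESN2 without p53, were mostly lower in spheroid culture, as GDF15 was. Of 12 such genes, 10 were lower by any amount (background 47.2%), 2 passed 2-fold downward (background 5.5%) and 0 passed 3-fold, with a median log2 ratio of -0.63. ASNS, the asparagine synthetase, read 12345 and 5421, and CHAC1, which degrades glutathione, read 785 and 369, although CHAC1 was under 2-fold with the higher floor, at -0.68 instead of -1.09. ATF4 itself was 1.31-fold lower and SESN2 1.29-fold lower. The part of ATF4 in the GDF15 signal was not tested.

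**Figure D4:**
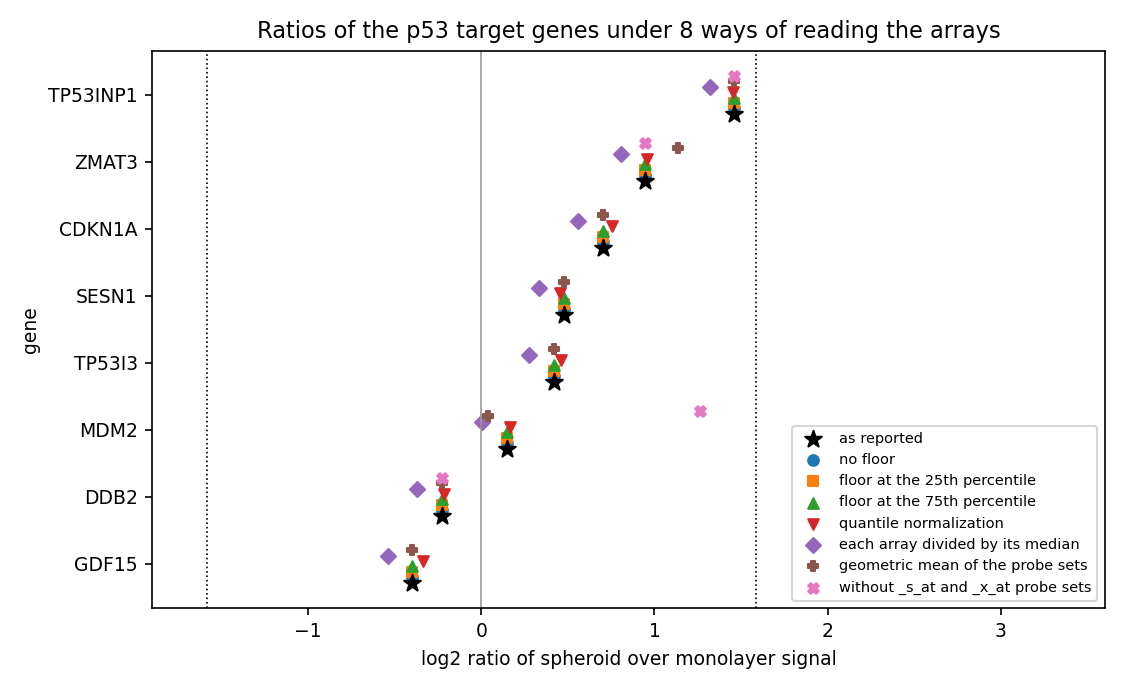
Spheroid over monolayer signal as a log2 ratio for each of the 8 measured p53 targets as reported (black star) and under 7 other readings of the same arrays, with dotted lines at 3-fold. The targets without a symbol for the last reading had no probe set left above the floor, and MDM2 was the only target that moved by more than the scatter between probe sets, to 1.27.

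Markers of the labelled cell line and of other cell types were read on both arrays. Whether they separate A549 from the hepatoma line in the labels was not tested, and near-equal sums compare the cultures without identifying the line. The 4 measured markers of A549, AKR1B10, AKR1C1, ALDH1A1 and NQO1, had summed signals of 197708 and 201648, nearly equal in the cultures. Of 8 hepatocyte markers, 4 exceeded the floor of the monolayer array and 6 that of the spheroid array, with summed signals of 2246 and 14822, and APOA2 and TTR were under both floors. In spheroid culture ALB was higher by at least 42.9-fold and AFP by at least 2.43-fold, with AFP reading 106 and 263, while APOH was 8.85-fold and AHSG 2.91-fold higher. Alveolar type II markers had summed signals of 1027 and 1595 over 4 genes, of which SFTPC alone passed 2-fold, and fibroblast markers had 1223 and 887. Of these 4 fibroblast genes, COL1A1 and DCN were above the floor on the probe sets used, and COL3A1 and LUM had 1 other probe set each above a floor. The part of these genes in the signals of the p53 targets was not tested. Of 3 endothelial markers 0 had a probe set above either floor. Of 3 leukocyte markers, CD3E was above both floors at 140.4 and 144.4, LYZ had 1 of 2 probe sets above a floor but not the one used for its level, and PTPRC had 0 of 5.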

How the data were processed

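Total RNA of 1 monolayer and 1 spheroid culture of A549 cells was hybridised to 1 array each. The deposited values are signal intensities on a linear scale, 1 per probe set, made with MAS5 and GCOS per the submitters' processing notes (no version is given in the sources used here), and the authors then used GeneSpring GX. Both arrays came scaled by the authors, with a mean of 499.9 once 2% of signals at either end were dropped. No further scaling was applied. Samples were grouped by title. Of 54675 probe sets, 41097 list 1 gene, and 41043 of these took a current symbol by Entrez identifier. Each gene was represented by the probe set that had the greatest log2 signal averaged over both arrays as deposited. Signals were then raised to the median of each array for the ratio, and a gene counted as above the floor by this probe set. "At least" marks a ratio with 1 array at this floor, and no ratio is given with both at it.

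With 1 array per culture no test was run, and folds of 2 and 3 served as limits. The targets, lists and rules were chosen with earlier results of these data known. Of each list up to 4 genes past 2-fold are named in each direction, together with MDM4, PPM1D and CDKN2A. HIPK2, MTAP, E2F1, CDC25A, AURKA, KIF23, ATF4 and SESN2 were chosen after their values were seen. The alternatives were no floor, floors at the 25th and 75th percentile, quantile normalization, division by the array median, the geometric mean of the probe sets above the floor, leaving out probe sets ending in _s_at or _x_at, and limits at 2-fold or at 5-fold in place of 3-fold. The steps were tested on simulated data, with planted changes larger than any target ratio and with less scatter than between real probe sets. That test therefore does not cover ratios as small as those of the targets. Promoter windows came from RefSeq (GRCh38.p14). Python 3.11.15, numpy 2.4.6, pandas 2.3.3 and matplotlib 3.10.9 were used. Precision is limited by the number of arrays.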

Additional observations from a re-analysis of the deposited data

How the results depend on the processing

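The 8 targets kept their sign under all 7 alternatives that gave them a value, and none passed 3-fold under any of them. For MDM2 the kept sign means little. Its log2 ratio was 0.0064 with division by the array median and 0.038 with the geometric mean. With probe sets ending in _s_at or _x_at left out, 4 targets had a value, their median log2 ratio was 1.11 instead of 0.45, and 11 of 15 cell cycle genes were at least 3-fold lower. A limit of 2-fold gave 1 higher target, 7 higher among the other p53 targets and 1 among the regulators, and a limit of 5-fold gave 0 higher and 1 lower among the other targets. For the other targets, no floor and quantile normalization each gave 2 higher, the floor at the 75th percentile 0 higher and 1 lower, and the geometric mean 1 lower. Division by the array median moved the median log2 ratio of all genes from 0.04 to -0.10. It gave medians of 0.31 for the 8 targets, 0.10 for the other targets, -0.039 for the regulators and -3.44 for the cell cycle genes. The median of the cell cycle genes was -3.63 with no floor or a floor at the 25th percentile, -2.10 with the floor at the 75th percentile, -3.10 with the geometric mean and -3.11 without _s_at and _x_at probe sets. Apart from the floors and the smaller sets of genes, the cause was not tested. A log2 ratio of a gene counted as moved past a shift of 0.35, a median past 0.16 for the 8 targets, 0.058 for the other targets, 0.11 for the regulators and 0.092 for the cell cycle genes, and a count past 1.5 times. No paired analysis was possible because each culture has 1 array.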

Other observations

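Paralogs and partners of the p53 targets were measured beside them, and of 11 with a probe set, 10 were above the floor. None of these 10 was 3-fold higher (background 2.34%) or 3-fold lower (background 2.11%), as few genes are in any list this short. BTG1, the antiproliferative paralog of BTG2 and a p53 target itself, read 10624.5 and 17315, so that spheroid cells were 1.63-fold higher, with 3 of 3 probe sets higher. BTG3, another member of that family, read 4460.3 and 2198, 2.03-fold lower, but its 3 probe sets above the floor went both ways and its log2 ratio was 0.85 without _s_at and _x_at probe sets. SESN3, a paralog of SESN1, was 1.83-fold higher on 1 of its 7 probe sets, the only 1 above the floor, with signals of 133.3 and 244, while SESN2 was lower on both of its probe sets. CDKN1B, which encodes the p21 relative p27, was 1.37-fold lower, with 3656 and 2660.3. DDB1, the partner of DDB2 in damage recognition, was level at 5205.5 and 4864. These genes were chosen after their values were seen, except BTG3.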
